A study of Mus musculus with 6 samples.

Results

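DEAD and DEAH box proteins are a large family of RNA helicases, named after the letters of a conserved ATP-hydrolysis motif. They use ATP to open short RNA duplexes or to strip proteins from RNA, and different members act at nearly every step of an RNA's life: transcription, splicing, export from the nucleus, ribosome assembly, translation and decay. In blood stem cells several members are of medical interest, among them DDX41, in which inherited mutations predispose to myeloid neoplasms. The genes described here were the rows of the deposited table whose symbol is Ddx or Dhx followed by a number, leaving out Ddx58, Dhx58 and Ddx3y. They numbered 45 of 11108 listed genes, 31 Ddx and 14 Dhx genes, and all 45 passed the filter on low values (a mean normalised read count of at least 10). The GENCODE mouse annotation holds 50 protein-coding genes of the same symbol pattern, and the other 5, Ddx4, Ddx19b, Ddx25, Ddx43 and Dhx35, have no values here.

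Hematopoietic stem cells were sorted from mouse bone marrow as lineage-negative cells carrying Sca-1, c-Kit and CD150 but not CD34, from wild-type (WT) mice and from Mcph1-/- mice, which lack microcephalin, known for its part in keeping chromosomes uncondensed before mitosis and in DNA damage signalling. Each of the 6 RNA-seq libraries, 3 per genotype, was made from 200 cells by Smart-seq2, which copies whole transcripts from small inputs, with no treatment named in either genotype. No source used here gives the age or strain of the mice, the part of Mcph1 that was deleted, or whether replicates are separate animals, so p-values measure library-to-library spread only, and this spread may be technical. Values are normalised read counts, that is, reads per gene divided by 1 size factor per library.

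Libraries held 8102605 to 10455908 reads in the listed genes. Reads were found for 10209 to 10335 genes in WT and for 10516 to 10777 genes in Mcph1-/- libraries. Mcph1 itself stood at 160.5, 341 and 34.4 in WT and 428, 37.7 and 234 in Mcph1-/-, and reads summed over the gene cannot check a deletion of unknown extent. All 12 stem cell markers searched are listed (4 higher and 8 lower in Mcph1-/-), with Kit and Ly6a, which encode the sorted proteins c-Kit and Sca-1, read in every library. Slamf1, which encodes the sorted protein CD150, was at 0 in WT replicate 1 and had 1 read in Mcph1-/- replicate 3, and Cd34, whose protein was sorted against, was read in every library. Of 7 T cell markers only Lck is listed, and of 7 B cell markers 5 are. The normalised read counts of these 5 summed to 879 to 3476 in WT and 525 to 5334 in Mcph1-/-, a wide spread in which the genotypes overlapped. Summed over their listed genes, 7 of 9 neutrophil markers stood at 58564 to 67847 in WT and 3287 to 18724 in Mcph1-/-, 3 of 6 monocyte markers at 7872 to 12700.0 and 4436 to 4792, and the stem cell markers at 18548 to 21680 and 14001 to 16378. Listed in the same way, 9 of 9 erythroid markers stood at 18177 to 37890.5 in WT and 48876 to 54758 in Mcph1-/-, and 21 of 22 proliferation genes at 7495 to 10198 and 18670 to 20407. The neutrophil, monocyte, stem cell, erythroid and proliferation sums and the number of genes detected differed between the genotypes without overlap. Their part in the helicase values below was not tested. Within the erythroid sum, 6 markers were higher (66.7%, beside 53.8% of all genes tested) and 3 lower in Mcph1-/-. The log2 fold changes of these 9 markers ran from -5.03 to 5.11, with a median of 0.19. In either direction, 5 of the 9 had an unadjusted limma p under 0.05 (55.6%, beside 7.71% of all genes tested). In bulk samples such as these, fewer cells of a type and less RNA per cell cannot be told apart.

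The comparison asked which helicase transcripts differ between WT and Mcph1-/- stem cells, and whether Ddx39a differs in the way its paralog Ddx39b does. The RNAs of the pair are alike enough that the coding sequences are shown first, at the place where they are hardest to tell apart. Over 1281 aligned coding bases, 1037 are identical (81.0%). The longest stretch without a mismatch is 26 bases long, and no run of 150 bases, the read length, is shared by any annotated transcripts of the pair. The lines below hold that stretch with the bases around it, from GENCODE transcripts, 5′ to 3′, with mismatched bases in capitals (bases 219 to 294 of the Ddx39a and 222 to 297 of the Ddx39b coding sequence, counted from the A of the start codon).
Ddx39a: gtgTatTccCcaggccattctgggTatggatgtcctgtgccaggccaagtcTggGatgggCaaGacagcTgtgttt
Ddx39b: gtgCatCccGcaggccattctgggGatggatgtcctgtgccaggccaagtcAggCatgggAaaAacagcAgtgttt
In these 76 bases the paralogs differ at 9 positions, so a 150-base read of either RNA carries bases that assign it to its own gene.

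Ddx39a encodes an RNA helicase of messenger RNA export, closely related to DDX39B, which loads the TREX export complex onto spliced messenger RNA and also acts in early spliceosome assembly. Its gene is at chromosome 8, 83715177 to 83726892, plus strand (mm10), where the annotation calls it Ddx39. Ddx39a stood at 1745, 2156 and 2268 normalised reads in WT libraries 1, 2 and 3, and at 4094, 5398 and 5978 in Mcph1-/- libraries 1, 2 and 3. Every Mcph1-/- library was above every WT library, and the lowest Mcph1-/- value was well above the highest WT value. The WT mean was 2056 ± 275 and the Mcph1-/- mean 5157 ± 965 (SD, n = 3). On the log2 scale the difference was 1.32 (SE 0.21), or 2.49-fold with a 95% interval of 1.79 to 3.46. Ranked by p-value, Ddx39a was 7 in order among 10846 genes tested, but it did not pass over all genes (limma adjusted p = 0.277). Its adjusted p was 0.154 to 0.858 when each library was left out in turn, 0.306 by edgeR and 1.99e-08 by DESeq2, which called 234 genes where limma called 4.

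Ddx39b is at chromosome 17, 35241746 to 35253707, plus strand (mm10). It stood at 2326, 1696 and 2295 in WT and 2097, 2695 and 2368 in Mcph1-/-. The genotypes overlapped, with 2106 ± 355 in WT and 2387 ± 299 in Mcph1-/- (SD, n = 3). The log2 fold change was 0.19 (SE 0.21; limma adjusted p = 0.815), or 1.14-fold with a 95% interval of 0.811 to 1.6.

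Within each library the Ddx39a value divided by the Ddx39b value was 0.750, 1.27 and 0.988 in WT and 1.95, 2.0 and 2.52 in Mcph1-/-, and the genotypes did not overlap. This ratio does not depend on how the libraries were scaled. On the log2 scale Ddx39a minus Ddx39b averaged -0.03 in WT (SD 0.38) and 1.1 in Mcph1-/- (SD 0.20, n = 3 each), so that the genotype differences of the paralogs were 1.13 apart. The two-sided exact permutation p was 0.1 (adjusted p = 0.3 over 3 paralog pairs), and with 3 libraries against 3 no smaller p can be had, so 0.05 is out of reach. The scale used here to compare levels of different genes is per kilobase of exon. Exon length is the union of all annotated exons, 5155 bases for Ddx39a and 3783 for Ddx39b. On this scale Ddx39a was below Ddx39b in all 3 WT libraries (0.550, 0.933 and 0.725 of it). It was above Ddx39b in all 3 Mcph1-/- libraries (1.43, 1.47 and 1.85 times it). The order in WT depends on these lengths, as before division Ddx39a was above Ddx39b in WT replicate 2 (1.27). The coding sequences are of nearly equal length (1281 and 1284 bases), and which exons were transcribed was not tested.

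**Figure D1:**
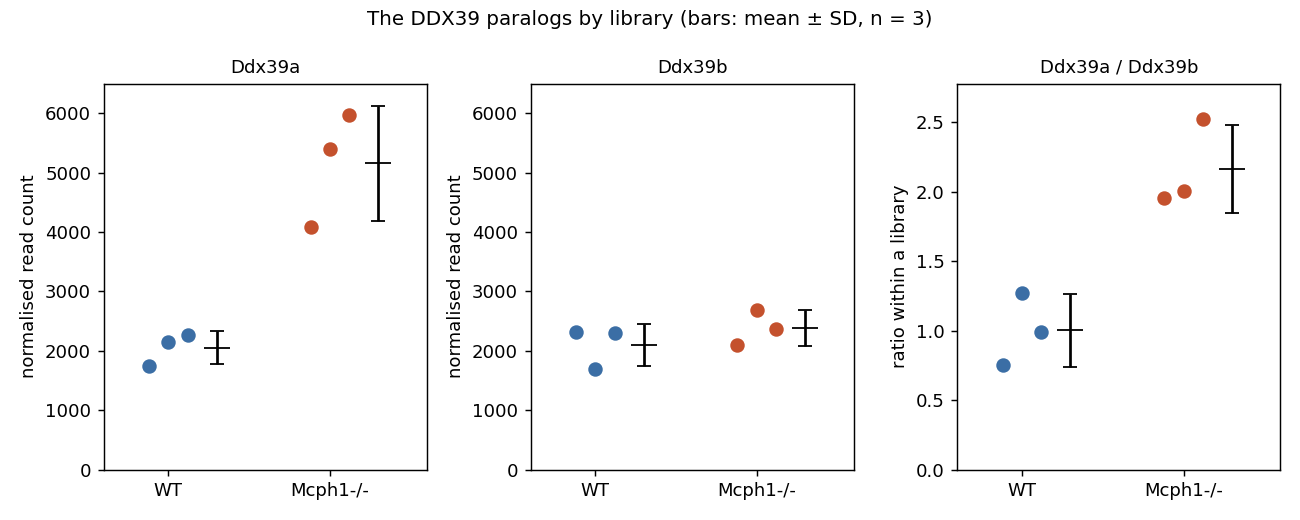
Normalised read counts of Ddx39a and Ddx39b and their ratio within each library (vertical axes, linear from 0) in WT and Mcph1-/- libraries; each point is a library and the bars give the mean ± SD (n = 3). Ddx39a runs from 1745 to 2268 in WT and from 4094 to 5978 in Mcph1-/-, while the Ddx39b values of the genotypes overlap.

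Exons of Ddx39a share 895 of 5155 bases (17.4%) with Adgre5, a surface receptor gene on the opposite strand, and without a stated strand setting reads in the shared part cannot be assigned by strand. Adgre5 stood at 375, 0 and 19.2 in WT and 73.9, 229 and 71.4 in Mcph1-/-. The genotypes overlapped in Adgre5, and its fitted log2 fold change was 2.45 (SE 2.16; limma adjusted p = 0.760). The 0 in WT replicate 2 pulls the WT mean of log values down, while the largest value was in WT replicate 1. The Adgre5 value was below that of Ddx39a in every library, but totals over a gene cannot show where in it the reads lie. How many Ddx39a reads fall in the shared bases was not tested. The exons of Ddx39b overlap only a small nucleolar RNA and a microRNA gene, Gm22589 and Mir8094.

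The third listed member of RNA export, Ddx19a, encodes a helicase that acts at the cytoplasmic face of the nuclear pore. It stood at 28.2, 151 and 94.1 in WT and 45.6, 42.7 and 25 in Mcph1-/-, and the genotypes overlapped (log2 fold change -1.0, SE 1.30; limma adjusted p = 0.846). Of 20 TREX and export partner genes 18 are listed and were tested. Of these, 13 were higher (72.2%, beside 53.8% of all genes tested) and 5 lower in Mcph1-/-. Their median log2 difference was 0.33 beside 0.08 over all genes tested. None of them passed (limma, smallest adjusted p = 0.626), and 2 of 18 had an unadjusted p under 0.05 (11.1%, beside 7.71% of all genes tested). These were Ncbp2, the small subunit of the nuclear cap-binding complex, and Thoc1, a subunit of the THO core of TREX. Ncbp2 stood at 679.9, 365 and 909 in WT and 1459, 1243 and 1274 in Mcph1-/- (log2 fold change 1.12, SE 0.37; limma adjusted p = 0.626). Thoc1 stood at 540.1, 806 and 865 in WT and 1154, 1269 and 1687 in Mcph1-/- (0.90, SE 0.30; limma adjusted p = 0.626). In both genes the genotypes did not overlap, as in Ddx39a, and the same held for Nxt1, a cofactor of the export receptor, so that 3 of the 18 were higher without overlap (16.7%, beside 7.4% of all genes tested). The smallest p after these belonged to Poldip3, an export adaptor, at 734, 82.4 and 0 in WT and 696, 435 and 648 in Mcph1-/- (3.88, SE 2.10; limma adjusted p = 0.666), where the library at 0 pulls the mean of log values down.

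Over the whole family, 0 of 45 genes passed by limma (4 of 10846 genes tested, or 0.0369%, did, 0.00922% higher and 0.0277% lower). All 4 were among the cell type markers above: 3 neutrophil markers that were lower and 1 erythroid marker that was higher in Mcph1-/-. At an unadjusted p under 0.05 there were 2 members, Ddx39a and Ddx21, or 4.44% of the family beside 7.71% of all genes tested. Both were higher, as were 4.16% of all genes. The genotypes did not overlap in 3 members that were higher in Mcph1-/- (Ddx39a, Ddx21 and Ddx18; 7.4% of all genes tested) and in 1 that was lower (Ddx27; 6.8%). Counts by edgeR (0.0184% of all genes, none of them higher) and limma-voom were also 0. DESeq2 called Ddx39a and Ddx21 higher, where it called 2.16% of all genes, 0.977% higher and 1.18% lower. By the fitted fold change 28 members were higher (62.2%, beside 53.8% of all genes tested) and 17 lower, with a median of 0.21 beside 0.08 over all genes tested. Counted in either direction, the share of members was below that of all genes for the unadjusted p and for genotypes without overlap (8.89% beside 14.2%). For higher genes alone, the share at an unadjusted p under 0.05 was 4.44% beside 4.16%. The share of members was above that of all genes for the DESeq2 calls (2 of 45, or 4.44%) and for the direction of the fold change. DESeq2 gave no adjusted p for many members, such as Ddx51, Ddx28, Dhx9 and Dhx15, nor for some other genes. The DESeq2 shares of members and of all genes count these as not called, so they are not shares of the genes that could be called. The shares by p, by overlap and by DESeq2 rest on 2 to 4 members. The normalised read counts of all 45 members summed to 30706 ± 3202 in WT and 35632 ± 2337 in Mcph1-/- (SD, n = 3), and without Ddx39a to 28649.5 ± 2931 and 30475.5 ± 1837, so that the ratio of the means was 1.16 with Ddx39a and 1.06 without it.

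**Figure D2:**
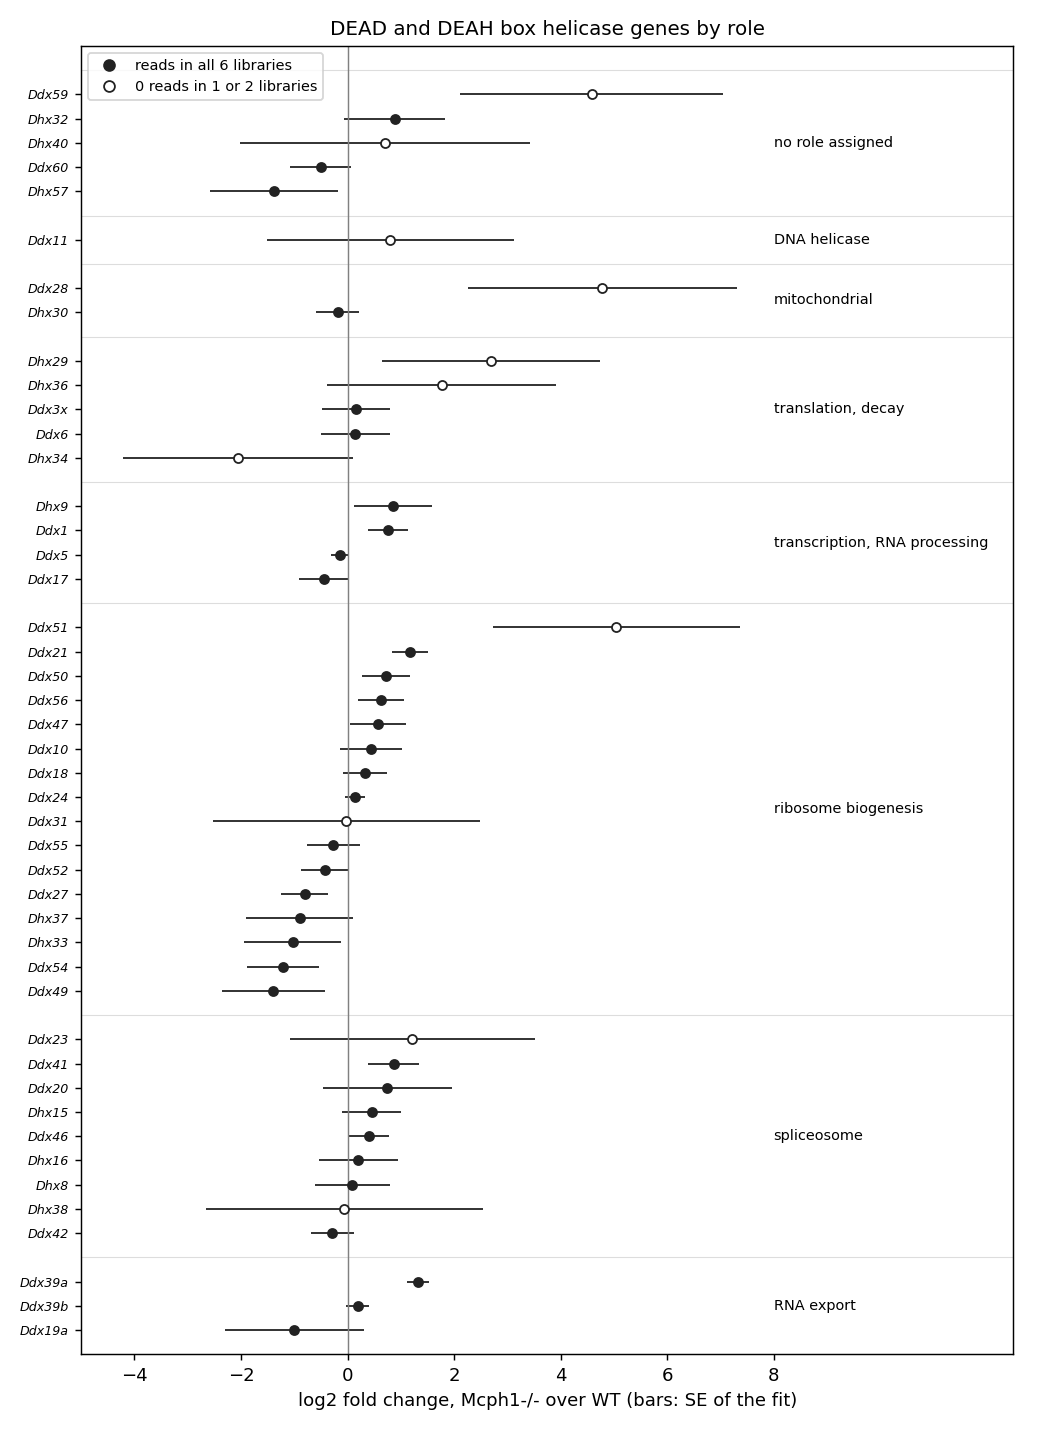
Log2 fold change of Mcph1-/- over WT (horizontal axis) with its SE (bars) for each of the 45 helicase genes, grouped by role; open points mark genes with 0 reads in 1 or 2 libraries. Ddx39a, at 1.32, has the narrowest bar among the genes far from 0, and the points at 4.58 to 5.05 are open.

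**Figure D3:**
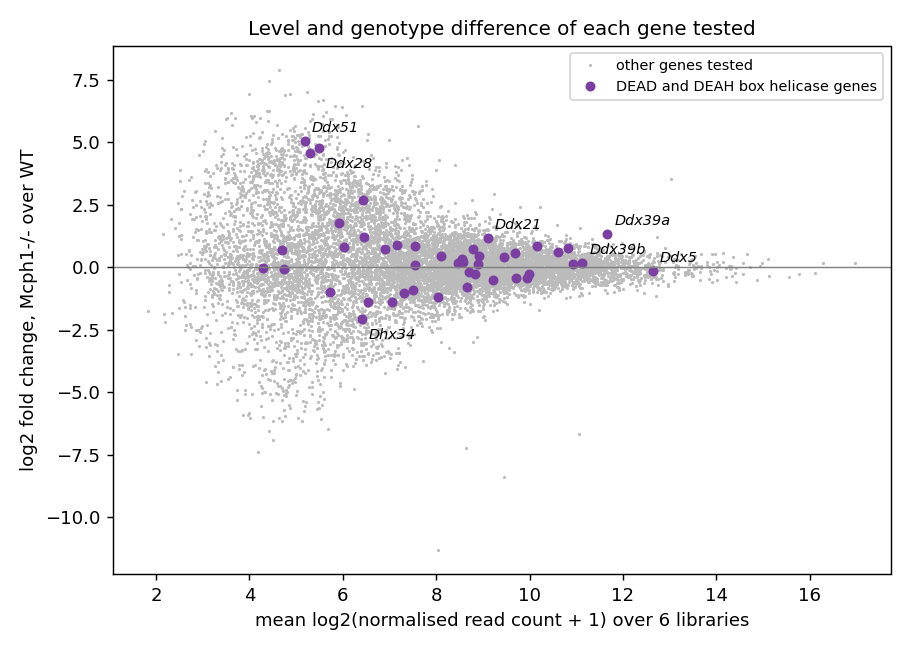
Log2 fold change of Mcph1-/- over WT (vertical axis) against the mean of log2(normalised read count + 1) over 6 libraries (horizontal axis), with 1 point per gene tested and the helicase genes in purple. Most helicase genes lie within the cloud of genes of the same level, and Ddx39a, at 1.32, lies at the upper edge of it.

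Ribosome biogenesis held the most members, 16, of which 8 were higher (50%, beside 53.8% of all genes tested) and 8 lower in Mcph1-/-. Their median log2 fold change was 0.06, and none passed. DDX21, a nucleolar helicase that couples ribosomal RNA transcription to its processing, had the second smallest p of the family. Ddx21 stood at 350.3, 425 and 327 in WT and 724, 824 and 933 in Mcph1-/-, without overlap. The log2 fold change was 1.17 (SE 0.34), or 2.25-fold with a 95% interval of 1.31 to 3.86, and limma's adjusted p was 0.592 (0.323 to 0.858 with each library left out, 0.778 by edgeR and 0.0065 by DESeq2). Its closest relative Ddx50 lies 13613 bases away on the same strand of chromosome 10, with Ddx21 from 62580251 to 62602281 and Ddx50 from 62615895 to 62651218 (mm10). Ddx50 stood at 211, 513 and 375 in WT and 577, 624 and 512 in Mcph1-/-, which overlap by the smallest of margins (log2 fold change 0.73, SE 0.45; limma adjusted p = 0.694). The ratio of Ddx21 to Ddx50 was 1.66, 0.829 and 0.873 in WT and 1.25, 1.32 and 1.82 in Mcph1-/-, so the genotypes overlapped (two-sided exact permutation p = 0.3; adjusted p = 0.45 over 3 pairs).

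The RNAs of these neighbours are less alike than those of the DDX39 pair, with 1477 of 2173 aligned coding bases identical (68.0%) and no run of 150 bases in common. The lines below show their longest identical stretch, 23 bases, with the bases around it in the same way (bases 894 to 966 of the Ddx21 and 522 to 594 of the Ddx50 coding sequence).
Ddx21: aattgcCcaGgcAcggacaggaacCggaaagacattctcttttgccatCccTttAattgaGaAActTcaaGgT
Ddx50: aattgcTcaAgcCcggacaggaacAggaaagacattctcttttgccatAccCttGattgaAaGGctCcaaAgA
With 13 mismatches in 73 bases, reads of the neighbouring genes can be told apart.

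Of the other nucleolar members, Ddx18 and Ddx27 were those without overlap, and they differed in opposite directions. Ddx18 stood at 345, 311 and 348 in WT and 416, 447 and 401 in Mcph1-/-, a small difference with narrow spread within each genotype (1.26-fold; log2 fold change 0.33, SE 0.41; limma adjusted p = 0.833). Ddx27, whose product works in maturation of the large subunit's ribosomal RNA, stood at 699, 547 and 399.8 in WT and 235, 366 and 331 in Mcph1-/- (-0.81, SE 0.44; limma adjusted p = 0.666). Ddx54, another nucleolar helicase gene, stood at 742, 346 and 242 in WT and 103, 180.5 and 269 in Mcph1-/- (-1.21, SE 0.67; limma adjusted p = 0.667), and here the genotypes overlapped. The exons of Ddx54 share 869 bases (14.2%) with an antisense gene, Gm43579, and 78 with Cfap73 on the opposite strand, so its values are uncertain without a strand setting. Ddx24, a factor of large-subunit assembly, was the steadiest of the 45 genes, from 1769 in WT replicate 2 to 2186 in Mcph1-/- replicate 1, with the highest library 1.24 times the lowest. Ddx51, needed for the end of the large ribosomal RNA, was read in a single WT library (0, 250.4 and 0) and in each Mcph1-/- library (87.6, 360.1 and 283). Its fitted difference of 5.05 on the log2 scale (SE 2.32; limma adjusted p = 0.662) is set by the 2 libraries at 0, and its mean was 2.92 times higher in Mcph1-/-.

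**Figure D4:**
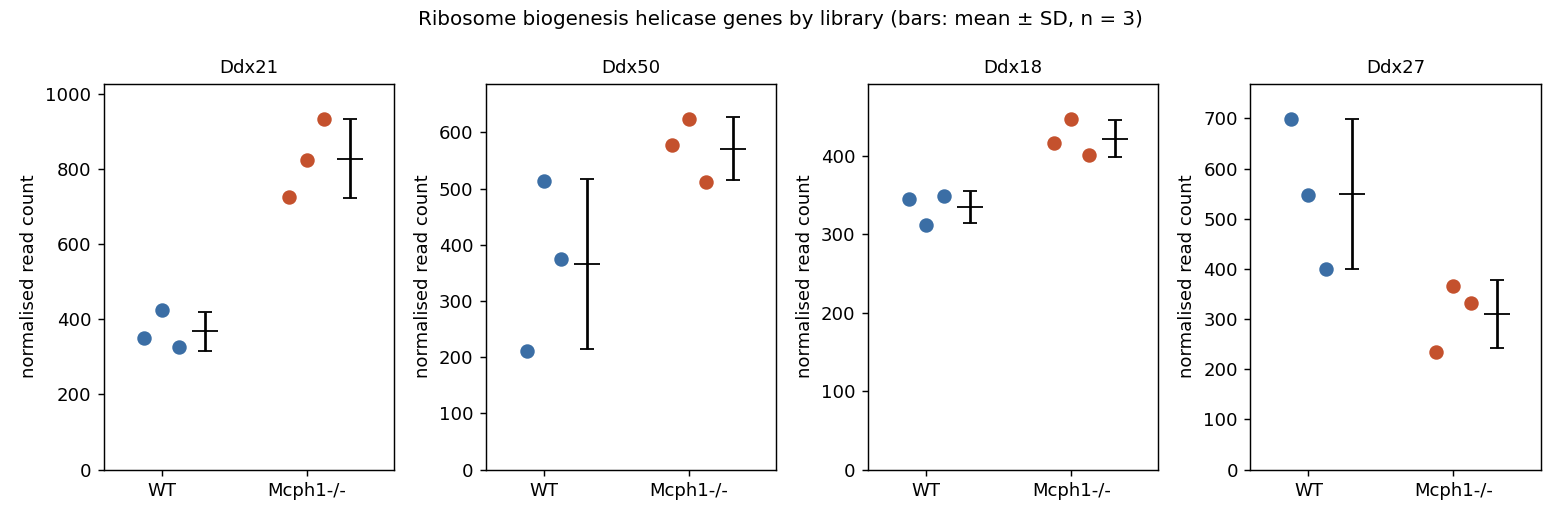
Normalised read counts (vertical axes, linear from 0) of Ddx21, Ddx50, Ddx18 and Ddx27 in WT and Mcph1-/- libraries; each point is a library and the bars give the mean ± SD (n = 3). Ddx21 and Ddx18 are higher in each Mcph1-/- library than in any WT library, Ddx27 is lower, and Ddx50 overlaps at 512 and 513.

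The 9 listed spliceosome members comprised 7 that were higher (77.8%, beside 53.8% of all genes tested) and 2 that were lower in Mcph1-/-. Their median log2 difference was 0.40, and none passed (limma, smallest adjusted p = 0.667). Ddx41 had the smallest p of them. It stood at 492, 1899.8 and 645 in WT and 1313, 1462 and 1901 in Mcph1-/- (log2 fold change 0.86, SE 0.48; limma adjusted p = 0.667), with WT replicate 2 about as high as the highest Mcph1-/- library. Its exons share 467 bases (17.4%) with an antisense gene, Gm46416, so its values are uncertain without a strand setting. Ddx46, whose product remodels the U2 particle at the branch point, stood at 422, 579 and 916 in WT and 805, 696 and 929 in Mcph1-/- (0.40, SE 0.37; limma adjusted p = 0.769). Dhx15, which takes spent spliceosomes apart, stood at 197, 188 and 345 in WT and 267, 433 and 286 in Mcph1-/- (0.46, SE 0.56; limma adjusted p = 0.831). Ddx42, a helicase associated with the SF3b part of the U2 particle, was on the lower side at 1486, 638 and 1467 in WT and 1261, 781 and 782 in Mcph1-/- (-0.28, SE 0.40; limma adjusted p = 0.859). In all 4 genes the spread within WT was as wide as the difference between genotypes. The other 5 were Dhx8, Dhx16, Dhx38, Ddx20 and Ddx23, with log2 fold changes from -0.06 to 1.22. The highest of these is that of Ddx23, a helicase of spliceosome activation, which had no read in WT replicate 1 and whose mean was lower in Mcph1-/- (150.5 against 302).

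Among the members of transcription and RNA processing, DDX5 and its paralog DDX17 are co-regulators of transcription and microRNA processing. Ddx5 had the highest mean of the family per kilobase of exon over the 6 libraries, at 1027, 1084 and 1389 in WT and 1166, 1034 and 958 in Mcph1-/-. It was the highest member in all 3 WT libraries and in Mcph1-/- replicate 1, while Ddx56 and Ddx39a were above it in Mcph1-/- replicate 2 and Ddx39a in Mcph1-/- replicate 3. Its mean normalised read count was 6737 in WT (SD 1125) and 6079.6 in Mcph1-/- (SD 609.6, n = 3 each), a log2 difference of -0.14 (SE 0.17; limma adjusted p = 0.829), and the 95% interval of the fold was 0.693 to 1.19. Ddx17 spread more widely, at 847, 1349 and 1309 in WT and 1574, 827 and 455 in Mcph1-/- (-0.44, SE 0.46; limma adjusted p = 0.795). The ratio of Ddx5 to Ddx17 overlapped between genotypes (4.64 to 7.0 in WT and 4.28 to 12.1 in Mcph1-/-; two-sided exact permutation p = 0.6; adjusted p = 0.6 over 3 pairs). Ddx1, a component of the transfer RNA ligase complex, stood at 1146, 938 and 2537 in WT and 2054, 2179.6 and 2976 in Mcph1-/- (0.76, SE 0.38; limma adjusted p = 0.662), with WT replicate 3 alone reaching the Mcph1-/- range. Dhx9, RNA helicase A, stood at 146, 73.1 and 242 in WT and 275, 222 and 255 in Mcph1-/- (0.86, SE 0.73; limma adjusted p = 0.754).

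After Ddx5, the mean values per kilobase of exon over the 6 libraries were 699.6 for Ddx39a, 689.9 for Ddx56, 594 for Ddx39b and 478 for Ddx41, and those of the remaining 40 members were 388 or less, down to 12.6 for Dhx36. Neighbours in this order overlapped in their library values: Ddx39a ran from 338 to 1160 per kilobase, Ddx56 from 391 to 1535, Ddx39b from 448 to 712 and Ddx41 from 183 to 707. The place of Ddx39a in this order came from the Mcph1-/- libraries, at 794, 1047 and 1160 per kilobase. In WT it stood at 338, 418 and 440 per kilobase, below both Ddx39b and Ddx56 in each library. The width of the Ddx56 range came from Mcph1-/- replicate 2 alone. Ddx56, a nucleolar helicase gene, had normalised read counts of 991, 1169 and 1692 in WT and 1297, 3889 and 1446 in Mcph1-/- (log2 fold change 0.63, SE 0.43; limma adjusted p = 0.706).

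Of 5 members of translation and decay, 4 were higher (80%, beside 53.8% of all genes tested) and 1 lower in Mcph1-/-. None of the 5 passed (limma, smallest adjusted p = 0.727). Ddx3x, a helicase of translation initiation, stood at 319.9, 168 and 697 in WT and 417, 233 and 546 in Mcph1-/- (log2 fold change 0.17, SE 0.64; limma adjusted p = 0.960). Ddx6, a translational repressor and core component of P-bodies, stood at 254, 366 and 983 in WT and 345, 1011 and 354 in Mcph1-/- (0.15, SE 0.64; limma adjusted p = 0.965). Both genes varied more within a genotype than between genotypes, and the sign of each depended on which library was left out (-0.33 to 0.69 for Ddx3x and -0.36 to 0.71 for Ddx6). Dhx36, which unwinds G-quadruplexes, stood at 194, 179 and 0 in WT and 169, 189 and 42.0 in Mcph1-/- (1.77, SE 2.15; limma adjusted p = 0.831). Dhx29, a factor of ribosome scanning, stood at 203, 188 and 0 in WT and 262, 153 and 254 in Mcph1-/- (2.69, SE 2.04; limma adjusted p = 0.727). Both owe the size of their fold change to the WT library at 0. Dhx34, a factor of nonsense-mediated decay, had its 0 in a Mcph1-/- library instead, at 285, 209 and 84.0 in WT and 0, 195 and 359.8 in Mcph1-/- (-2.06, SE 2.17; limma adjusted p = 0.799).

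The mitochondrial members Ddx28 and Dhx30, both factors of mitochondrial ribosome assembly, showed no shared direction. Ddx28 stood at 624, 0 and 0 in WT and 413, 122 and 254 in Mcph1-/- (log2 fold change 4.78, SE 2.52; limma adjusted p = 0.663), although its highest value was in WT. Dhx30 stayed between 355 and 515 in every library (-0.18, SE 0.40; limma adjusted p = 0.916). Ddx11, which encodes a DNA helicase of sister chromatid cohesion, stood at 325, 372 and 0 in WT and 41.1, 219.8 and 68.7 in Mcph1-/-. Its mean was lower in Mcph1-/- (109.9 against 232), while the fitted log2 difference, 0.80 (SE 2.31; limma adjusted p = 0.943), was positive because of the library at 0. Of the 5 members to which no role was assigned, Ddx60, an interferon-inducible gene, stood at 321, 877 and 1229.9 in WT and 387, 372 and 842 in Mcph1-/- (-0.50, SE 0.58; limma adjusted p = 0.815). Ddx59 was read in WT replicate 2 alone among the WT libraries, at 524, and at 183, 186 and 209 in Mcph1-/- (4.58, SE 2.47; limma adjusted p = 0.666). Dhx32, Dhx40 and Dhx57 had log2 fold changes of 0.89, 0.70 and -1.38.

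Reads were found in all 6 libraries for 34 members, in 5 for 7 and in 4 for 4. Members at 0 were unevenly spread over the libraries, with 5, 1 and 7 of 45 in the WT libraries and 1, 0 and 1 in the Mcph1-/- libraries. Over all listed genes 8.09%, 6.96% and 7.47% were at 0 in WT and 5.33%, 2.98% and 3.66% in Mcph1-/-. Helicase genes at 0 were thus mostly in WT replicates 1 and 3, as the map of values by library shows. By counting error alone, a count of 0 allows an expected count of up to 3 reads, a normalised read count of 2.46 to 3.25. The 11 members with a library at 0 had a median log2 fold change of 1.22, and the 34 members read in every library one of 0.16 (0.02 over all such genes tested). Of those 34, 20 were higher (58.8%, beside 50.9% of all genes tested with reads in 6 libraries) and 14 lower in Mcph1-/-.

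**Figure D5:**
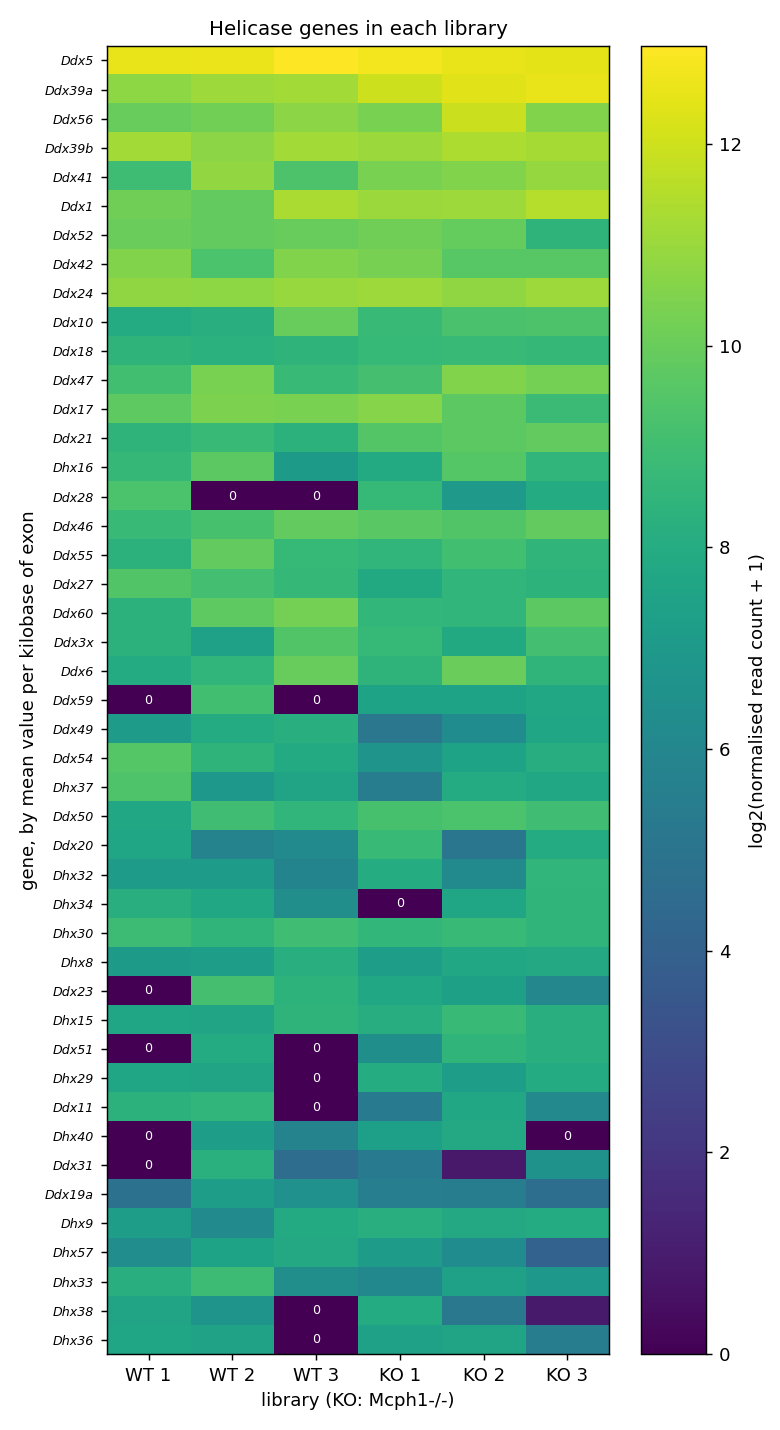
Log2(normalised read count + 1) of the 45 helicase genes (rows, ordered by mean value per kilobase of exon) in the 6 libraries (columns; KO stands for Mcph1-/-), with 0 written where a library has no read. The zeros lie mostly in WT replicate 1 (5 genes) and WT replicate 3 (7 genes), and the row of Ddx39a is brighter in the 3 Mcph1-/- columns.

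Members also differed in how tightly replicates agreed. The coefficient of variation between replicates, the SD as a percent of the mean, had a median of 56.6% in WT and 43.0% in Mcph1-/- over the 45 members, beside 54.6% and 40.7% over all genes tested. It was lower in Mcph1-/- for 33 of 45 members (73.3%, beside 63.0% of all genes tested). Ddx39a, at 13.4% in WT and 18.7% in Mcph1-/-, and Ddx21, at 14.01% and 12.6%, were among the steady members, as were Ddx5 and Ddx39b. The spread within WT was wide for Ddx10 (83.0% in WT and 19.8% in Mcph1-/-) and Ddx41 (76.3% and 19.6%), in each of which a single WT library stood far above the others.

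The RNA helicases outside the symbol pattern and the partners of the family were counted in the same way. Of 20 other RNA helicase genes, 18 were tested, 7 higher (38.9%, beside 53.8% of all genes tested) and 11 lower in Mcph1-/- (median log2 fold change -0.40), with none past the threshold (limma, smallest adjusted p = 0.686). The smallest p belonged to Aqr, a helicase of the spliceosome's intron-binding complex, at 506, 604 and 374 in WT and 362, 311 and 215 in Mcph1-/- (-0.74, SE 0.46; limma adjusted p = 0.686). Mtrex, the helicase of the nuclear RNA exosome, was at -1.03 on that scale (SE 0.73) and Eif4a2, of translation initiation, 0.49 (SE 0.38), and neither passed. Of 24 genes for helicase cofactors 22 were tested, 11 higher and 11 lower (median 0.01), and none passed (limma, smallest adjusted p = 0.603). Edc3, a decapping enhancer that binds DDX6, stood at 1501, 1181 and 1177 in WT and 649.5, 692 and 769.6 in Mcph1-/-, without overlap (-0.86, SE 0.26; limma adjusted p = 0.603). Gemin4, a partner of DDX20 in the SMN complex, and Gpatch1, a G-patch protein, had log2 fold changes of -2.22 (SE 1.15) and -1.77 (SE 0.99). Gpatch1 was also lower without overlap, so that with Edc3 this held for 2 of the 22 (9.09%, beside 6.8% of all genes tested).

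The difference in Ddx39a stood beside those of proliferation genes in the same libraries. Of 21 tested proliferation genes 20 were higher in Mcph1-/- (95.2%, beside 53.8% of all genes tested; median log2 fold change 1.04 beside 0.08), 10 of them without overlap (47.6% beside 7.4%), and none passed (limma, smallest adjusted p = 0.277). Ube2c, an enzyme of mitotic exit, stood at 335, 690.3 and 253 in WT and 2047, 2064 and 2044 in Mcph1-/- (2.40, SE 0.39; limma adjusted p = 0.277). Mcm6, a subunit of the replicative helicase, stood at 1251, 1100.3 and 1055 in WT and 2159, 2116 and 2790.1 in Mcph1-/- (1.04, SE 0.22; limma adjusted p = 0.435). Kif11, a spindle motor, stood at 0, 3.09 and 0 in WT and 213, 499.6 and 215 in Mcph1-/- (7.48, SE 1.51; limma adjusted p = 0.428). No WT library of Kif11 was above the floor of 3 reads. It passed the filter on low values through its Mcph1-/- libraries alone, and the size of its fold change is set by the WT libraries at 0. The proliferation genes were added after values were seen, and whether the Ddx39a values go with the share of dividing cells was not tested.

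The promoters of the family were searched for 7 transcription factor motifs, on both strands of the 250 bases before the start, in RefSeq sequences of build GRCm38.p6 that matched 40 of the 45 genes, all but Ddx6, Ddx11, Ddx23, Ddx39a and Dhx38. None of these motifs contains another. The ETS motif CCGGAAG was in 15 of 40 promoters (37.5%), beside 15.0% of 9822 promoters of listed genes and 6.91% of all 32851. CCAAT was in 16 (40%, beside 35.3% and 33.8%), the E box CACGTG in 4 (10%, beside 8.56% and 6.02%) and the cyclic AMP response element TGACGTCA in 4 (10%, beside 2.70% and 1.55%). The E2F motif TTTCCCGC was in 1, Ddx41 (2.5%, beside 1.77% and 0.895%). The NRF1 motif was in 2 (5%, beside 1.76% and 0.782%) and the YY1 motif AAGATGGC in 0 (beside 2.16% and 1.56%). Ddx39b, Ddx50 and Ddx5 were among the genes with the ETS motif, and Ddx21 had none of the 7. These matches describe letters in a window and were not measured as binding here.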

How the data were processed

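Each library came from 200 cells by Smart-seq2 and was sequenced as paired 150-base reads, per the labels' protocols. Per the submitters' processing notes, which give tools but not their order or role, HISAT2, featureCounts, Trim Galore 0.6.6 and DESeq2 were used with the mm10 build. No annotation release or strand setting is named in the sources used here. The deposited values are a normalised signal, the reads of a gene over 1 size factor for its library, as the values themselves show: 100% come out as whole reads within 0.001 reads. Genes in the table have reads in 4 or more of 6 libraries, so a gene read in 3 libraries of 1 genotype alone would be missing. The 444 genes without a symbol (2.22% to 2.38% of reads) stayed in the fits. Replicates differed by far more than sampling noise (chi-square per degree of freedom at least 82.9).

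The main test was limma-trend (limma 3.58.1, R 4.3.3) on log2(value + 1) of all 6 libraries with genotype as its term, over the 10846 genes whose mean reached 10, with Benjamini-Hochberg adjustment over these genes and a threshold of 0.05. Fold changes are differences of mean log2(value + 1), which understate changes of low genes and are inflated by a library at 0. The paralog difference was tested by exact permutation over libraries (scipy 1.17.1). The alternatives were edgeR 4.0.16, DESeq2 1.42.0 and limma-voom on the recovered reads, TMM scaling, pseudocounts of 0.5 and 16, no filter or a mean of at least 50, a replicate block and leaving out each library. The fits were tested on simulated data. The floor of 3 reads covers counting error only: without molecular identifiers, reads are not independent molecules.

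Positions and exon lengths (union of exons) come from GENCODE vM21 on mm10, matched by identifier for 45 of 45 members, and 12 members share exon bases with another gene. The members and gene lists were chosen with earlier results of these data known. Named genes were Ddx39a, Ddx39b, 9 members fixed by name, members past the threshold or without overlap, up to 4 per role by smallest p, the 5 highest per kilobase, and 3 per partner list. The paralog pairs of Ddx21 and Ddx5, other members given with values, the proliferation genes and the promoter motifs were added after values were seen. Chromatin accessibility data named in the series design are not analysed here.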

Additional observations from a re-analysis of the deposited data

How the results depend on the processing

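No member passed in 14 of the 15 alternatives, and with DESeq2 the count of members higher in Mcph1-/- was 2. DESeq2 also passed Edc3, Ube2c and Mcm6, and it called 234 genes in all where limma called 4, edgeR 2 and limma-voom 1. The cause was not tested. Ddx39a kept its direction in all 15, with log2 fold changes from 1.20 to 1.47 with a library left out and from 1.31 to 1.36 otherwise. Ddx39a minus Ddx39b was 1.12 to 1.13 under the alternatives of scale and tool and 0.94 to 1.32 with a library left out, where the smallest p is 0.2. Same-numbered libraries showed no visible pairing: their deviations correlated at -0.014, 0.018 and -0.03. With replicates this far apart, a weak pairing could stay hidden. With the replicate block Ddx39a minus Ddx39b was 1.13 (exact permutation p = 0.25, the smallest 3 pairs allow), Ddx39a had a limma adjusted p of 0.486 and 0 members passed. The members' median log2 fold change was 0.09 (DESeq2, where that of all genes moved from 0.08 to -0.03) to 0.34 (without Mcph1-/- replicate 1). Signs turned for Ddx11 with a pseudocount of 16 (-0.30), by edgeR (-1.06) and by DESeq2 (-1.08), as its 0 in WT replicate 3 weighs less there. With each library left out, log2 fold changes ran from -2.01 to 2.26 for Ddx11, -0.33 to 0.69 for Ddx3x, -0.36 to 0.71 for Ddx6, -3.62 to 0.63 for Dhx34 and -0.75 to 3.05 for Dhx36. At 200 cells and 3 libraries per genotype, members with a library at 0 have SEs above 2 and differences in them are not detectable.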
